A study of Caenorhabditis elegans with 17 samples.

Results

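Histone genes are described here as they were measured in oocytes of wild-type *C. elegans* (Bristol N2). They were taken as the rows of the authors' table whose name starts with *his-* or *hil-* and a number, which gave 58 genes of 21459. The labels list 17 libraries of dissected oocytes, 9 from animals on control NGM culture and 8 from animals moved at the L4 stage to medium with 300 mM NaCl until the first day of adulthood. The maturing oocytes next to the spermatheca were cut from 1 gonad arm of a single animal with some gonadal sheath attached, so RNA of both cell types was sequenced. The labels number the libraries of each group from 1 to 3 and add a letter to each number, while the study's supplement gives 3 replicates per condition with 1 animal each, so how libraries relate to animals and which of them entered the values is unclear. The question behind the sequencing was which oocyte mRNAs differ with maternal osmotic stress. The authors' own comparison of the treatments is part of the deposited table and was left out here, and only their mean over both treatments was used for this family. Every level below is that mean, as the authors calculated it, and it holds no spread between libraries and no difference between treatments. Library depths are unknown, and the table holds no values of single libraries, so no order of levels could be set against replicate error.

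Histones are the proteins around which DNA is wound. A nucleosome core holds H2A, H2B, H3 and H4, and the linker histone H1 binds where the DNA enters and leaves it. Most core histone genes of *C. elegans* lack introns and lie in clusters of divergent pairs, and in animals such genes typically give mRNAs that end in a stem-loop in place of a poly(A) tail. Replacement histones often come from genes with introns and can be made outside DNA replication. An oocyte of this species is loaded with RNA and protein for the first embryonic divisions. The labels name a stranded kit for total RNA, a type of kit that does not depend on a poly(A) tail. The paper states that the cut oocytes were frozen in SMART seq solution, and its methods name no library kit. Whether RNA without a tail was captured as well as RNA with one was not tested.

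The label of the cells was checked first. All 10 oocyte markers were abundant, with mean normalized counts from 1494 to 6262, among them the yolk receptor *rme-2* at 4411 and the eggshell gene *cbd-1* at 6262. Sheath markers were present too, from 4.53 for *tnt-2* to 1515 for *inx-8*, with 9 of 10 at a mean of at least 10. The 8 intestine markers ranged from 8.54 to 367, and the 9 measured of 10 sperm markers from 3.55 to 43.3. The same minimum was reached by 7 of these intestine markers, 6 of these sperm markers and 52.6% of all genes in the table. The count at this minimum therefore does not separate attached sheath from other tissue. The median of the means was 430.6 for the sheath list, 38.44 for intestine and 18.96 for sperm, but the sheath and intestine ranges overlap. The part of the attached sheath in the levels of single histone genes was not tested.

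The 58 histone genes summed to a mean normalized count of 8610, which was 0.195% of the sum over the table. Single members ran from 0.674 for *his-43* to 1555 for *hil-4*, with a median of 41.99 against 12.3 over all genes. A mean of at least 10 was reached by 41 members, or 70.7%, and by 52.6% of all genes in the table. Only 2 members, *hil-4* and *hil-5*, lay above 1000. Together with *hil-2* they held 42.3% of the summed count of the family. To compare genes, each mean was divided by the length of the longest annotated transcript in kilobases, and this value is the level per kilobase given from here on. The median level per kilobase was 91.3 over all 58 members. It was 207 for the 41 members with a mean of at least 10, and 144 for all genes above the same mean, a minimum that short genes such as these pass only at a higher level per kilobase.

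**Figure D1:**
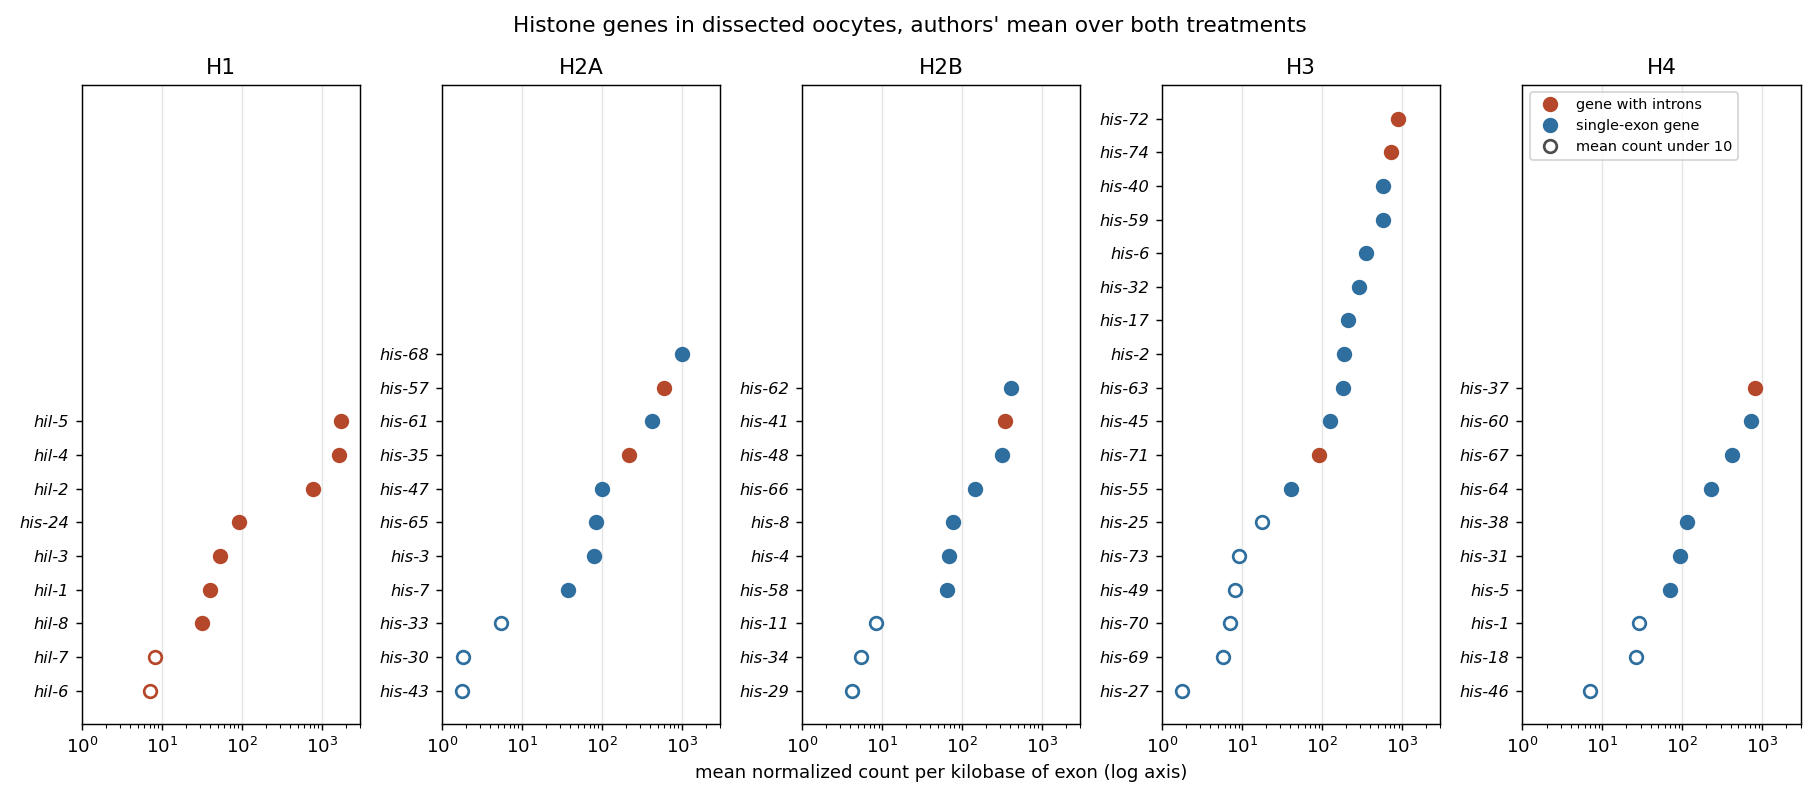
Level of each of the 58 histone genes as the authors' mean normalized count per kilobase of exon, on a log axis, with one panel for each histone class. Each point is 1 gene, filled where its mean normalized count was at least 10, and *hil-5* at 1719 and *hil-4* at 1628 lie farthest to the right.

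Of the linker histone genes, 3 carried most of the class. *hil-5* (WBGene00001856), on the forward strand of chromosome I from 5774585 to 5775610 in WBcel235, had a mean normalized count of 1490 and a level per kilobase of 1719. *hil-4* (WBGene00001855), on the forward strand of chromosome V from 4754313 to 4755453, had a mean of 1555 and a level per kilobase of 1628. Both have 2 exons and annotated untranslated regions, and both lay above the 99th percentile of the table by level per kilobase (99.35 and 99.32). *hil-2*, on chromosome IV, followed at 784 per kilobase, or percentile 97.0.

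The other linker genes were far lower. *his-24*, on the X chromosome, encodes a linker histone with a known role in germline gene silencing, and its level per kilobase was 92.0 from a mean of 84.9. Exons of 2 noncoding RNA genes on the opposite strand overlap it, and whether the counting used strand is not given in the sources used here. *hil-3* on the X chromosome, *hil-1* and *hil-8* had levels per kilobase of 52.6, 40.1 and 32.03. *hil-7* and *hil-6* had means under 10, at 4.19 and 5.60. The *hil-5* level was therefore 39.4% of the summed level per kilobase of the class, and *hil-5* and *hil-4* together made 76.7%.

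Summed over its members, H1 came to 4363 per kilobase and H3 to 4293, followed by H2A at 2551, H4 at 2517 and H2B at 1442. As shares of the whole family these were 28.8%, 28.3%, 16.8%, 16.6% and 9.51%. The order rests partly on single genes and the shares on length. Without the highest gene of each class, H3 (32.96%) passed H1 (25.6%) and H4 (16.5%) passed H2A (14.97%), and with no division by length H1 held 44.9% and H4 10.2%. Among the core histones alone, H3 held 39.7%, H2A 23.6%, H4 23.3% and H2B 13.3%. A nucleosome core holds equal numbers of the 4 core proteins, while the summed transcript level was 1.71 times as high for H3 as for H4 and 1.77 times as high for H2A as for H2B. These shares and ratios cover only genes with a *his-* or *hil-* name and a row in the table. Left out by name are the H2A variant *htz-1*, at 1339 per kilobase, and the centromeric H3 gene *hcp-3* and its relative *cpar-1*, at 439 and 409. The 22 annotated histone loci without a row were not analysed here, all of them of the core classes. They are uneven, since 18 of 21 H3 loci had a row but only 10 of 16 H4 loci. For H2A and H2B it was 11 of 17 and 10 of 17. The H3 sum also includes *his-69* to *his-74*, which made 40.1% of it, so the ratio of H3 to H4 depends on them. Single-exon H3 genes summed to 2595, against 2517 for all H4 genes and 1704 for the single-exon H4 genes. With no division by length and the same genes included, H3 held 24.3% of the family against 10.2% for H4. For H2A and H2B it was 13.7% and 6.80%.

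**Figure D2:**
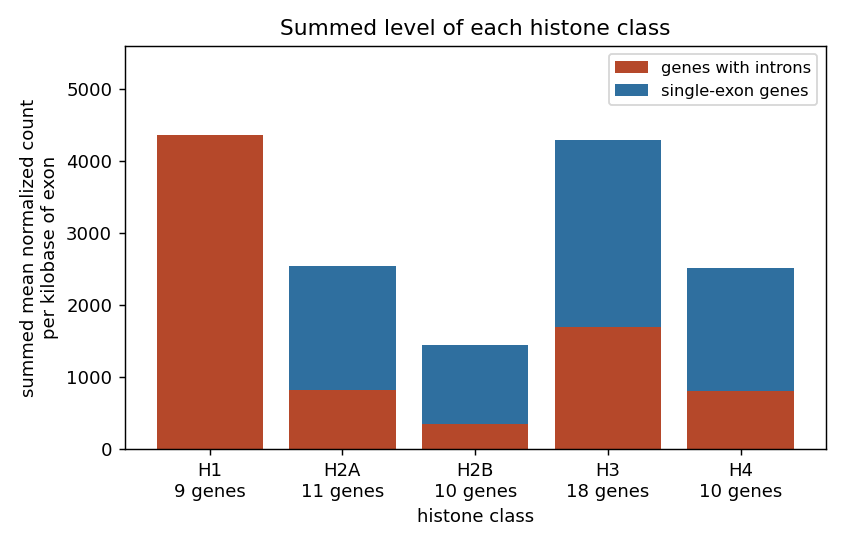
Summed level of each histone class, as mean normalized count per kilobase of exon added over the class members, split into genes with introns and single-exon genes. The H1 bar consists of genes with introns only, and the H2B bar is the lowest at 1442.

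The core histone genes were also grouped by gene structure. All 16 intron-containing histone loci of the annotation had a row, 9 of them linker genes, and so did 42 of 64 single-exon loci. The 7 intron-containing core genes (*his-35*, *his-37*, *his-41*, *his-57*, *his-71*, *his-72* and *his-74*) had levels per kilobase from 90.5 to 887 with a median of 602. That median is the level of *his-57*, which has 3 annotated transcripts. The 42 single-exon core genes ran from 1.76 to 1004 with a median of 78.1, so the ranges overlap. Single-exon genes still held 65.95% of the summed core level, and the 7 genes with introns held 34.05%. No single-exon member has an annotated untranslated region, so their lengths are coding lengths, whereas those of genes with introns are not. Divided by coding length throughout, the 7 genes held 42.04%, and without the core members whose exons overlap another gene (*his-4*, *his-8*, *his-37*, *his-41*, *his-57* and *his-73*) genes with introns held 21.57%.

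The H3 class was led by replacement genes. *his-72* (WBGene00001946), which occupies positions 12367475 to 12369050 of chromosome III on its reverse strand, encodes a replacement H3 and had a mean normalized count of 559 and a level per kilobase of 887. It has 3 exons and 2 annotated transcripts. *his-74*, on chromosome V, had a mean of 419 and a level per kilobase of 722. The X-linked *his-71*, which encodes the same kind of replacement H3 as *his-72*, was much lower, at a mean of 53.5 and 90.5 per kilobase. The remaining genes of this numbered group were close to the bottom of the class, with means of 2.21 for *his-69*, 2.84 for *his-70* and 1.27 for *his-73*. *his-73* has an exon of only 141 bases that overlaps an exon of *W09H1.4* on its own strand. Genes *his-69* to *his-74* together made 40.1% of the summed H3 level per kilobase.

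Of the single-exon H3 genes, *his-40* on the X chromosome and *his-59* on chromosome IV had the highest levels per kilobase, at 582 and 573. *his-6* and *his-32* followed at 357 and 291. These genes have the same annotated length of 411 bases, and their means were 239, 236, 147 and 120. In contrast, *his-27* and *his-49*, of the same length, had means of 0.722 and 3.29.

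Among H4 genes, *his-37* was highest, with a mean of 349 and a level per kilobase of 813. It lies on chromosome V from 9547105 to 9547607, has 2 exons, and overlaps an exon of the protein-coding gene *nstp-10* on the opposite strand. *his-60*, *his-67* and *his-64* came next at 727, 413 and 228. All H4 members other than *his-37* have an exon of 312 bases, and the lowest of them was *his-46* with a mean of 2.16. The highest pair of H4 genes held 61.2% of the summed level of the class.

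The H2A class was led by *his-68* on chromosome I, a single-exon gene with a mean of 386 and a level per kilobase of 1004, the highest of any core histone gene measured here. *his-57*, on chromosome IV, had a mean of 406 and a level of 602 per kilobase, with 3 annotated transcripts and an exon overlap with *klp-12* on the opposite strand. *his-61* reached 417 and *his-35*, which has an intron, 218 per kilobase. These 4 genes held 87.9% of the summed H2A level. At the other end *his-43*, *his-30* and *his-33* had means of 0.674, 0.695 and 2.07.

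No H2B gene reached the highest level of any other core class. *his-62* had the highest level per kilobase at 407 from a mean of 151, followed by *his-41* at 346, *his-48* at 315 and *his-66* at 147. *his-41* is the only H2B member with an intron, and it overlaps an exon of *C50F4.6* on its own strand. *his-29*, *his-34* and *his-11* were lowest, with means of 1.57, 2.01 and 3.07.

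Divergent pairs allow neighbours to be compared. A pair was counted where adjacent histone loci are read away from each other with at most 1000 bases between their annotated starts. The annotation holds 31 such pairs, 16 of H2A with H2B, 14 of H3 with H4 and 1 of H2A with H4, separated by 228 to 369 bases. Both genes had a row in 18 pairs, and 42 members lay in a pair.

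In the 8 H3 and H4 pairs with both rows, the H3 gene had the higher level per kilobase in 6, each time by at least 2-fold. The ratio of H3 to H4 had a median of 5.12 and ran from 0.788 to 18.3. The highest 3 ratios rest on H4 genes with means under 10 (*his-46*, *his-18* and *his-1*), and among the 5 pairs with both means at 10 or more, H3 was higher in 3. *his-6* stood at 357 beside *his-5* at 69.6, *his-40* at 582 beside *his-38* at 114, and *his-45* at 126 beside *his-46* at 6.92. In the 2 remaining pairs the H4 gene was slightly higher, with *his-60* at 727 beside *his-59* at 573, and *his-64* at 228 beside *his-63* at 180. The difference between neighbours thus varied with the pair.

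The 9 H2A and H2B pairs were compared in the same way. Here H2A was higher in 3 pairs and H2B in 6, with a median ratio of H2A to H2B of 0.631 and a range from 0.320 to 9.41. Among the 7 pairs with both means at 10 or more, H2A was higher in 3 and H2B in 4, with the same median ratio. The pairs left out, *his-30* with *his-29* and *his-33* with *his-34*, had means of 2.07 or less. *his-61* and *his-62* were nearly equal at 417 and 407 per kilobase, and so were *his-33* and *his-34*, both at a low 5.4. The most unequal pair was *his-57* at 602 beside *his-58* at 63.97. The pair with the highest summed level was the mixed pair of chromosome I, in which *his-68* (H2A, 1004) stands 369 bases from *his-67* (H4, 413).

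**Figure D3:**
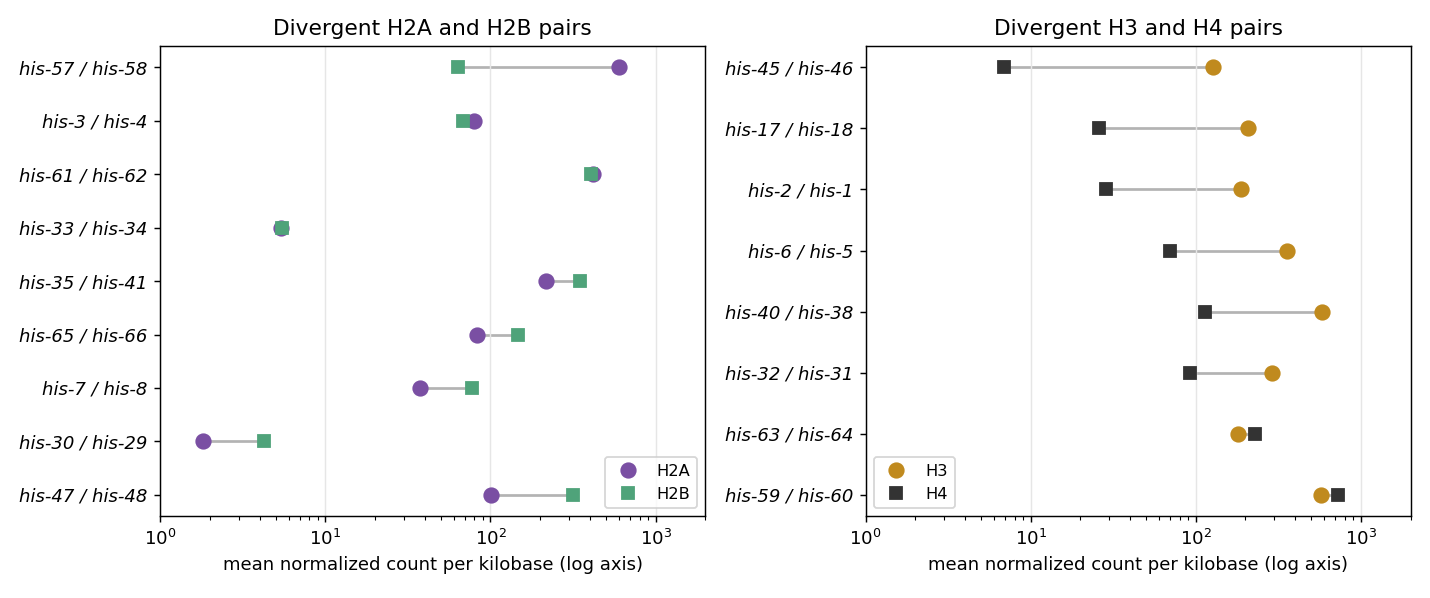
Levels of both genes of each divergent pair as mean normalized count per kilobase of exon on a log axis, with H2A and H2B pairs on the left and H3 and H4 pairs on the right. Lines join the 2 genes of a pair, and the H3 point lies to the right of the H4 point in 6 of 8 pairs.

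Position along the chromosomes was the other way in which members differed. Grouping loci at most 20000 bases apart gave 9 clusters of at least 4 loci, 1 on chromosome II and 4 each on chromosomes IV and V. On chromosome IV, the cluster from 7485834 to 7488659 holds *his-61*, *his-62*, *his-60* and *his-59*. Its 4 genes had means from 151 to 236, and together they made 19.7% of the summed core level per kilobase. All its neighbours on that chromosome were less even. In the cluster from 11324056 to 11341703, *his-57* at 406 stood beside *his-46* at 2.16, and in the one from 8331044 to 8336340, *his-32* at 120 and *his-31* at 28.8 were flanked on both sides by genes at 2.07 or less.

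On chromosome II, the cluster from 13817760 to 13828697 holds the most loci of any cluster, yet only 3 of its 13 loci had a row. These were *his-25*, *his-11* and *his-43*, with means of 7.15, 3.07 and 0.674, or 0.254% of the summed core level per kilobase. A similar picture was seen on chromosome V from 8847393 to 8854053, where 1 of 6 loci had a row, *his-49* at 3.29. In the cluster from 8889488 to 8898539, only *his-27* (0.722), *his-17* (85.3) and *his-18* (8.14) of 8 loci did. By contrast, the cluster from 16040144 to 16042831 had a value for each of its 4 loci, from 8.89 for *his-1* to 77.6 for *his-2*.

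**Figure D4:**
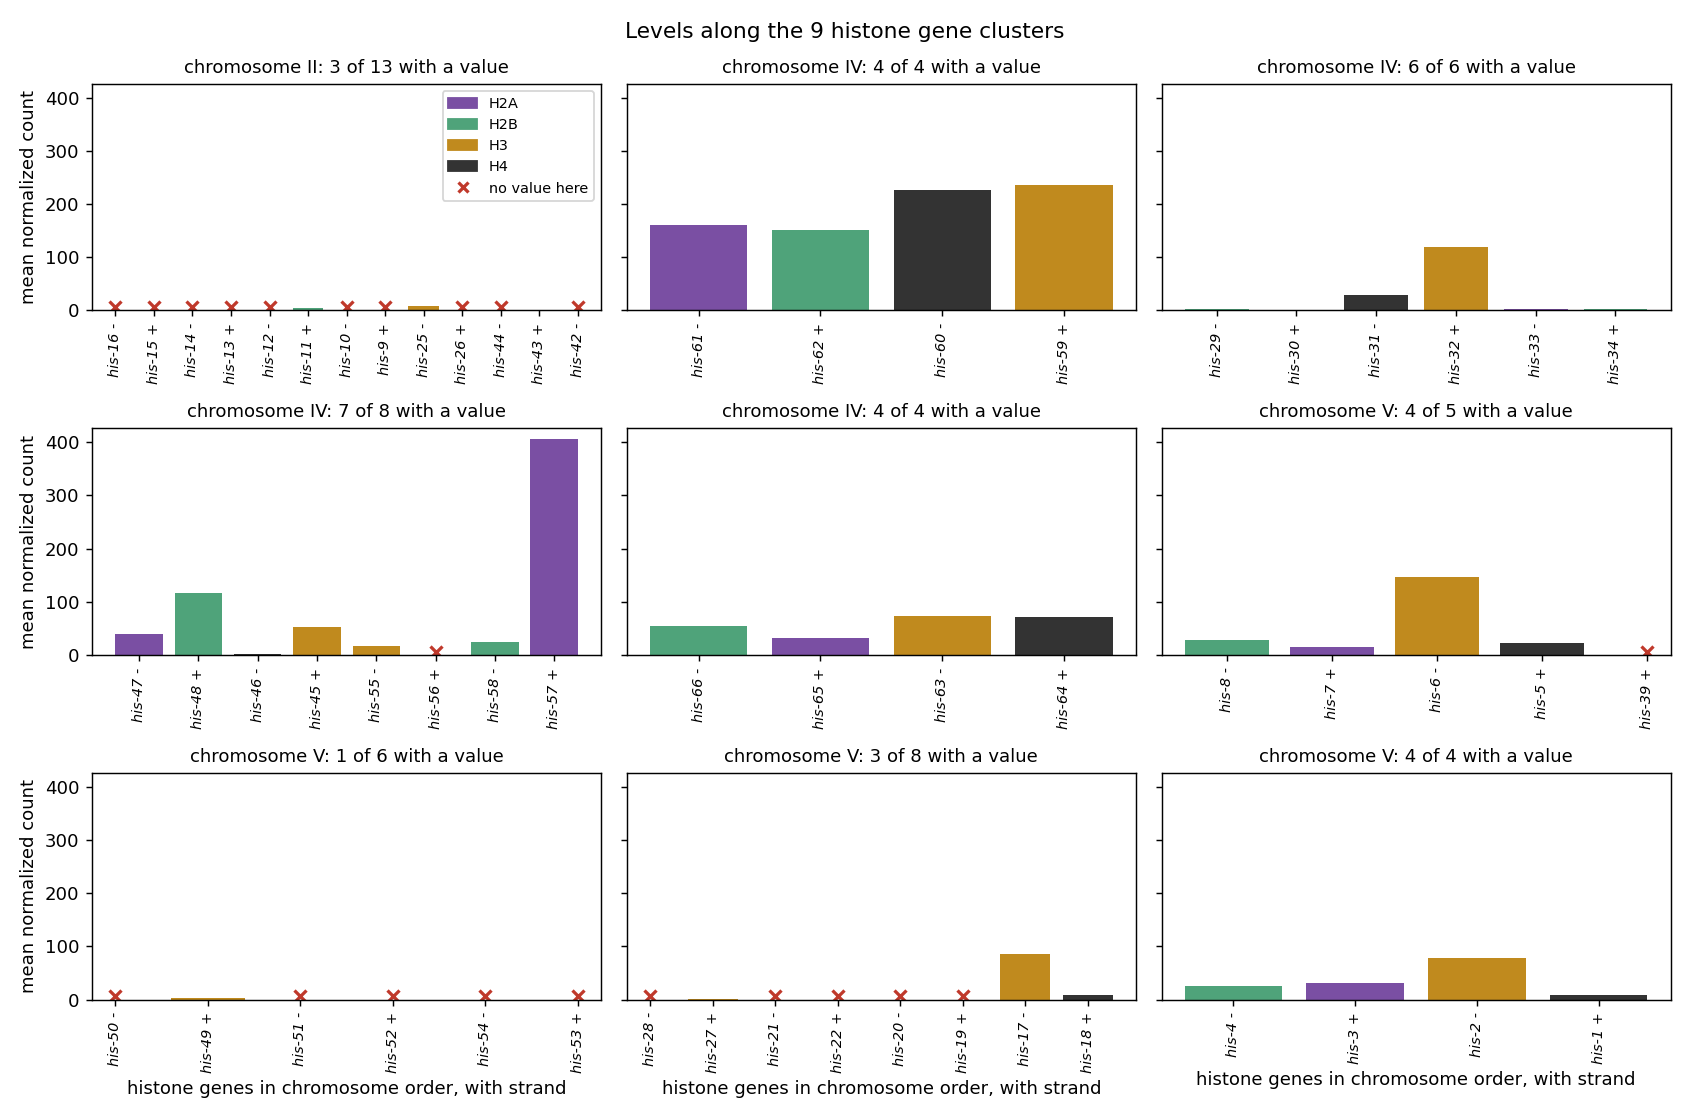
Mean normalized count of each histone locus in its order along the 9 clusters, with bars coloured by class and a red cross where no value was analysed. Bars of the chromosome IV cluster of *his-59* to *his-62* are of similar height, from 151 to 236, while the chromosome II cluster shows 3 low bars among 13 loci.

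The loci without a row were unevenly spread over the annotation in another respect. Ensembl gives 14 symbols to more than 1 histone locus each, 36 loci in all, such as *his-51* for 4 loci of chromosome V. Of those 36 loci 17 had a row, against 41 of the 44 loci whose symbol is their own. Among single-exon genes alone, 16 of 35 loci with a shared symbol had a row, with means from 0.674 to 54.5 and a median of 3.18. For single-exon loci with a symbol of their own it was 26 of 29, with means from 1.27 to 386 and a median of 72.4. Core histone genes of a class are close copies of one another, and reads that fit several copies can be split or dropped in counting. The levels of single-exon members are therefore uncertain. So is that of *his-57*, which has introns but shares its symbol with the single-exon genes *his-47* and *his-65*. The part of shared reads in these differences was not tested, since gene sequences were not used here.

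Genes that supply and handle histones were abundant next to most histone genes. Of 3 variant histone genes outside the *his-* and *hil-* names, *htz-1*, which encodes the H2A variant of active promoters, had a level per kilobase of 1339, higher than that of every core histone gene measured here. The centromeric H3 gene *hcp-3* stood at 439 per kilobase and its relative *cpar-1* at 409. All 8 listed genes for processing of histone mRNA ends had a mean of at least 10. *cdl-1*, the stem-loop binding protein, had a mean of 1244 and a level per kilobase of 778, and the Argonaute gene *csr-1*, linked to histone mRNA maturation in worms, had 949 and 259. The small RNA cofactors *ego-1*, *drh-3* and *ekl-1* lay at 313, 278 and 477 per kilobase, and the cleavage factors *cpsf-2*, *cpsf-3* and *symk-1* at 346, 285 and 163.

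Histone chaperones had the highest median mean count of the 3 lists, 1232. The 14 measured of 16 ranged from 508 to 2364, with a median level per kilobase of 679. *nasp-2* and *nasp-1*, which encode relatives of a chaperone that stores free H3 and H4, stood at 1228 and 774 per kilobase. Subunits of FACT, which moves nucleosomes out of the way of polymerases, were close to each other at 668 for *spt-16*, 691 for *hmg-3* and 696 for *hmg-4*. The replication-linked assembly genes *chaf-1* and *chaf-2* lay at 712 and 435, and *lin-53* and *rba-1*, which encode H4-binding proteins, at 887 and 564. *hira-1* and *xnp-1*, linked to replacement H3, had levels per kilobase of 325 and 319. The Asf1 genes *asfl-1* and *unc-85* came to 513 and 560, and *nap-1*, an H2A and H2B chaperone, to 895.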

How the data were processed

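Oocyte RNA was sequenced from 17 libraries, 8 of 300 mM NaCl and 9 of control culture. The authors used STARsolo on the WBcel235 genome, dropped every gene whose reads over all libraries came to less than 10 and ran DESeq2. The submitters' processing notes also name STAR and kallisto, and versions are not given in the sources used here. The deposited signal is a mean normalized count per gene, which the authors averaged over the libraries entered after dividing counts by a size factor, and neither the names of those libraries nor their depths are given. The supplement states 3 replicates per condition, against 17 libraries in the labels. The other 5 numeric columns hold the authors' comparison (log2 fold change, its error, a test statistic and p-values) and were not used, and no column belongs to a single library. The authors' tests were set aside as their own results, and with no values of single libraries no further test across libraries was run.

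Positions, exons and lengths came from Ensembl release 115 of WBcel235, which held 21399 of the 21459 identifiers and all 58 members. RefSeq gave the same name for all 58 at the same place. Means were divided by the summed exon length of the longest annotated transcript. Histone classes were written by hand from gene names. Gene and protein sequences were not used here, so neither the classes nor the residues of replacement H3 were checked against them. The named genes were the 4 highest per kilobase in each core class, all linker genes, *his-69* to *his-74*, the highest divergent pair and the listed supply genes. Others, namely low members, further pairs and clusters, were named after their values were seen. The clusters and the split by gene structure and by shared symbol were also chosen then. Members and lists were chosen with earlier results of these data known. The pair, cluster and share functions were tested on simulated loci. Python 3.11.15 and matplotlib 3.10.9 were used.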

Additional observations from a re-analysis of the deposited data

How the results depend on the processing

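No paired analysis was possible because the values are 1 mean per gene over all libraries and carry no replicate number. For the same reason no library could be left out. The planned checks of unique exon sequence and of the stem-loop after the stop codon were not run, since they need a genome sequence. The histone share of the table, 0.195%, was 0.199% of protein-coding genes and 0.200% without the 20 highest genes. The count of 41 members with a mean of at least 10 became 55 at a minimum of 1 and 19 at 100. With coding length, the shares of H1, H2A, H2B, H3 and H4 in the summed level were 31.5%, 16.3%, 8.77%, 27.7% and 15.8%, with no division by length 44.9%, 13.7%, 6.80%, 24.3% and 10.2%, and without the highest gene of each class 25.6%, 14.97%, 10.01%, 32.96% and 16.5%. The order of H1 before H3 and that of H2A before H4 were thus turned around in the last setting only. The share of *his-69* to *his-74* in H3, 40.1%, was 48.2% with coding length and 49.5% with no division. Allowing pairs up to 2000 bases in place of 1000 left 42 members in a pair. Alternatives chosen after seeing the data concerned the share of core genes with introns, 34.05%, which was 42.04% with coding length, 43.7% with no division, 21.6% without members that overlap exons of other genes and 23.5% without *his-57* and *his-72*. All 6 pairs with H3 higher were so by at least 2-fold, and 3 of them had both means at 10 or more, 2 settings also chosen after seeing the data.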
